A study of Arabidopsis thaliana with 8 samples.

Results

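AT2G39980 encodes an acyltransferase of the BAHD family and AT1G50110 a branched-chain aminotransferase, also known as BCAT6. Both genes were selected on the measured difference between ethylene and air in these arrays, and each is read by 1 probe set that names no other gene. They are 2 of the 13286 genes that a single-gene probe set names on this array of 22810 probe sets. The 8 arrays, each giving 1 scaled intensity per probe set, were made from etiolated whole seedlings of Arabidopsis thaliana (total RNA, wild-type Col-0, 3 days old). In the ethylene group (4 arrays) the seedlings had 68 h of air and then 4 h with 10 ppm ethylene, and in the air group (4 arrays) they had 72 h in the dark. Each group holds 2 replicas from each of 2 experiments, and an array is named by experiment and then replica, so ethylene 2-1 is the first replica of the second experiment. No label says that replicas were separate cultures, so each p-value reflects the spread among these samples alone, which may be technical. Whole seedlings were used, and more RNA per cell and more cells of a type that holds the RNA cannot be told apart.

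BAHD acyltransferases move an acyl group from coenzyme A to an alcohol or amine, and plants use them to finish lignin precursors, surface lipids, phenolic amides, acylated anthocyanins and other specialised products. The substrate of the AT2G39980 product is not named in the annotation used here. Branched-chain aminotransferases exchange the amino group of leucine, isoleucine and valine with that of glutamate. They catalyse both the last step of the synthesis of these amino acids in plastids and the first step of their breakdown, which goes on in mitochondria, while the BCAT6 protein is known from the cytosol. Ethylene is a gaseous hormone that etiolated seedlings answer with a shorter, thicker hypocotyl and a tighter apical hook.

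The AT2G39980 probe set read 32701.7 on ethylene 2-1, 39868.0 on ethylene 2-2, 66852.8 on ethylene 1-1 and 63152.4 on ethylene 1-2. In air it read 3760.4 on air 2-1, 3490.7 on air 2-2, 8675.7 on air 1-1 and 7822.5 on air 1-2. The lowest ethylene array was 3.77 times the highest air array, so the groups did not overlap, and within each group both arrays of experiment 1 lay above both arrays of experiment 2. The mean was 50644 ± 16904 in ethylene and 5937 ± 2694 in air (SD, n = 4 each). On the log2(intensity + 16) scale, on which all differences here are given, the difference was 3.14 (SE 0.34), an 8.84-fold level in ethylene. The fit has group as its only term, so this SE holds the shift between experiments. With the experiment as a block the SE was 0.12. The difference ranked 11 among the 15922 probe sets tested, counted from the largest increase. As the gene was chosen for this difference, no test of it is given. On the ethylene arrays between 92 and 228 probe sets were brighter than AT2G39980, and the brightest values there lay between 99118.8 and 348483.1, so its readings were not at the top of the scale. No detection or saturation calls were available.

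The AT1G50110 probe set read 5245.0 on ethylene 2-1, 4569.7 on ethylene 2-2, 3938.0 on ethylene 1-1 and 4390.1 on ethylene 1-2. In air it read 559.2 on air 2-1, 434.5 on air 2-2, 677.2 on air 1-1 and 494.5 on air 1-2. The lowest ethylene array was 5.82 times the highest air array. The 4 ethylene arrays lay closer together than those of AT2G39980, the highest being 1.33 times the lowest, against 2.04 times for AT2G39980. The mean was 4536 ± 542 in ethylene and 541 ± 104 in air (SD, n = 4 each), a difference of 3.04 (SE 0.18), or 8.23-fold, which ranked 14. With the experiment as a block the SE of this difference was 0.17. Of all probe sets tested, 4.19% had all 4 ethylene arrays above all 4 air arrays. Both genes are among these by the way they were chosen.

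**Figure D1:**
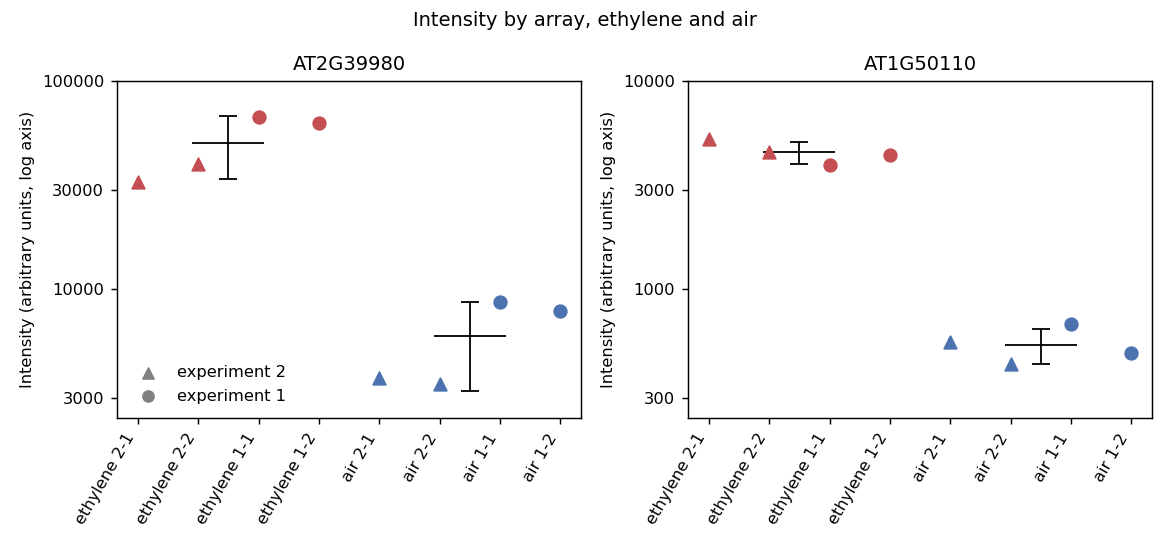
Intensity (arbitrary units, log axis) of AT2G39980 (left panel) and AT1G50110 (right panel) on each array, with ethylene arrays in red to the left of air arrays in blue, triangles for experiment 2 and circles for experiment 1. Black bars give the group mean and SD (n = 4). In AT2G39980 the experiment 1 arrays lie above those of experiment 2 in both groups, and in AT1G50110 the experiment 2 arrays lie above those of experiment 1 in ethylene and the experiments are interleaved in air.

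The ratio of ethylene to air was also read within each experiment. For AT2G39980 the same-numbered arrays gave ratios of 8.7 (2-1), 11.4 (2-2), 7.71 (1-1) and 8.07 (1-2). For AT1G50110 they were 9.38 (2-1), 10.5 (2-2), 5.82 (1-1) and 8.88 (1-2). The replica number is not shown to pair arrays, so the match of replicas within an experiment is arbitrary. The log2 difference of AT2G39980 was 3.31 in experiment 2 and 2.98 in experiment 1 (SE 0.16 each), and that of AT1G50110 was 3.27 and 2.81 (SE 0.23 each). Whether the ethylene difference depends on the experiment was tested with limma, by the interaction of group and experiment. It was larger in experiment 2 by 0.33 for AT2G39980 (95% interval −0.14 to 0.81, limma adjusted p = 0.861) and by 0.46 for AT1G50110 (−0.23 to 1.15, limma adjusted p = 0.866). Neither passed, and the intervals leave room for a difference of up to 0.81 and 1.15. The size of both depended on the setting, though neither passed under any of 16 alternatives (adjusted p 0.67 to 0.999 for AT2G39980 and 0.696 to 0.999 for AT1G50110). Quantile normalization gave 0.77 for AT2G39980, leaving out ethylene 2-2 gave 0.19 for it, and leaving out air 1-1 or air 2-2 gave 0.24 or 0.28 for AT1G50110. Over all probe sets tested limma called 0 for this interaction (0% of 15922), with 917 at an unadjusted p under 0.05. In simulated data this test recovered 6.4% of differences of 1 log2 unit and 56.4% of those of 2. The absence of calls therefore does not show that the ethylene difference was the same in both experiments.

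The 2 genes differed in how their level moved between experiments, a contrast that the choice of the genes did not use. Averaged over ethylene and air, AT2G39980 was lower in experiment 2 than in experiment 1, its difference being −1.01 (SE 0.11, limma adjusted p = 4.54e-05). Its level in experiment 1 was 2.02 times that in experiment 2. In ethylene its mean was 36284.8 in experiment 2 and 65002.6 in experiment 1, a log2 difference of −0.85 (limma adjusted p = 0.0041). In air the means were 3625.6 in experiment 2 and 8249.1 in experiment 1, a difference of −1.18 (limma adjusted p = 0.000515). AT1G50110 differed between experiments by 0.01 (95% interval −0.34 to 0.35, limma adjusted p = 0.985), and its sign turned with other scalings of the arrays (−0.14 with equal medians, −0.04 with quantile normalization).

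The contrast between experiments is read against a large background. Of all probe sets tested, 18.2% were called higher and 12.4% lower in experiment 2, and 5.26% shifted at least as far as AT2G39980 in either direction. The median shift of all probe sets was 0.07, and −0.07 when each array was scaled to the same median, and that scaling changed the calls to 1820 higher and 2962 lower, from 2898 and 1980 as deposited. AT2G39980 stayed lower with both other scalings, at −1.16 (limma adjusted p = 1.41e-05) and −0.87 (5.36e-05), and its adjusted p ranged from 1.41e-05 to 0.00257 over the 17 alternatives. The log2 ratio of AT2G39980 to AT1G50110 was lower in experiment 2 by 1.08 in ethylene and by 0.96 in air. An exact two-sided permutation test of the experiment labels within each group gave p = 0.0556 over the 8 arrays, the smallest value that the 36 arrangements allow, so this design cannot reach the 0.05 threshold. This ratio test was added after the values were seen.

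AT2G39980 was next set beside the other genes of its family. Of 63 BAHD genes listed, 47 had a single-gene probe set and 26 passed the filter on dim probe sets. Of these 26, 3 were called higher and 3 lower in ethylene, against 1.56% called higher and 2.55% lower among all probe sets tested. AT2G39980 is among the 3 higher ones by its selection. The median difference of the other 25 was −0.21, against 0.01 for all probe sets tested, and their highest difference was 1.66.

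The other BAHD genes that rose were AT5G01210 and CER26. AT5G01210 read between 24048.8 and 39241.4 on the ethylene arrays and between 9119.0 and 10816.3 on the air arrays, with no overlap. Its mean was 33015 ± 6438 in ethylene and 10282 ± 798 in air, and its difference of 1.66 passed (SE 0.17, limma adjusted p = 0.000407). CER26 (AT4G13840) is related to CER2, a BAHD-type protein needed for the longest fatty acyl chains of surface wax. It read 837 ± 167 in ethylene and 398 ± 87.1 in air, and its difference was 1.05 (SE 0.25, limma adjusted p = 0.0408). The CER26 call ended with no filter on dim probe sets (0.0778) and without any single array other than ethylene 1-1 (0.065 to 0.124, against 0.0475 without ethylene 1-1), and its adjusted p over all alternatives ranged from 0.00697 to 0.253.

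The 3 BAHD genes that fell had every ethylene array below every air array. The share of all probe sets with this order is not given here, so the count is a description only. AT5G47980, an acyltransferase gene of the cluster for the root triterpene thalianol, read between 616.1 and 865.1 in ethylene and between 2237.8 and 2465.8 in air. Its log2 difference was −1.71 (SE 0.17, limma adjusted p = 0.000353). AT5G47950, whose locus number lies close to it, averaged 2521 ± 452 in ethylene and 6447 ± 1071 in air, a difference of −1.35 (SE 0.18, limma adjusted p = 0.00174). SCT (AT2G25150), which attaches coumaroyl groups to the polyamine spermidine, read 1559 ± 428 in ethylene and 3322 ± 535 in air, a difference of −1.11 (SE 0.22, limma adjusted p = 0.0185). The SCT call ended without air 2-1 (0.0599) or air 2-2 (0.0584), and its adjusted p ranged from 0.000491 to 0.135 over all alternatives.

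The remaining 20 tested BAHD genes did not pass. The largest differences among them were −1.17 for AT1G24430 (SE 0.67), −0.87 for AT3G50300 (SE 0.31) and 0.82 for AT5G67150 (SE 0.49). AT1G24430 read 28.5 on ethylene 1-2 and between 310.9 and 579.4 on the other ethylene arrays, and AT5G67150 read 81.3 on air 1-1 and between 397.5 and 564.4 on the other air arrays. With the experiment as a block, in which all probe sets gain power (4.33% called higher and 7.35% lower), 6 BAHD genes were called higher and 6 lower. Beside AT2G39980, AT5G01210, CER26 and the 3 that fell, these were AT1G27620, AT2G40230 and AT5G42830 higher and AT4G15390, HCT and BAT1 lower. With replicas as a random block 2 BAHD genes were called higher and 2 lower, against 119 and 130 of 15922 probe sets. Leaving out 1 array gave 2 to 3 BAHD genes higher and 2 to 3 lower. HCT (AT5G48930), which makes an intermediate of lignin synthesis, read 19391 ± 3678 in ethylene and 26080 ± 6053 in air. BAT1 (AT4G31910), an acyltransferase that acts on brassinosteroids, read 3230 ± 328 in ethylene and 5314 ± 1765 in air. The 21 BAHD genes under the filter read between 3.4 and 488.5 on the ethylene arrays and between 6.3 and 465.2 on the air arrays. Of these 21, 1 gene, AT3G26040, had every ethylene array above every air array, and 0 had the reverse. Among the brighter probe sets tested, a different set, 4.19% had every ethylene array above every air array, so this count is not read as a result. AT3G26040 read 216.2, 173.2, 375.3 and 154.2 on ethylene 2-1, 2-2, 1-1 and 1-2, and 42.8, 19.6, 33.0 and 83.2 on the same air arrays. The gene was not tested and was picked out after its values were seen.

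**Figure D2:**
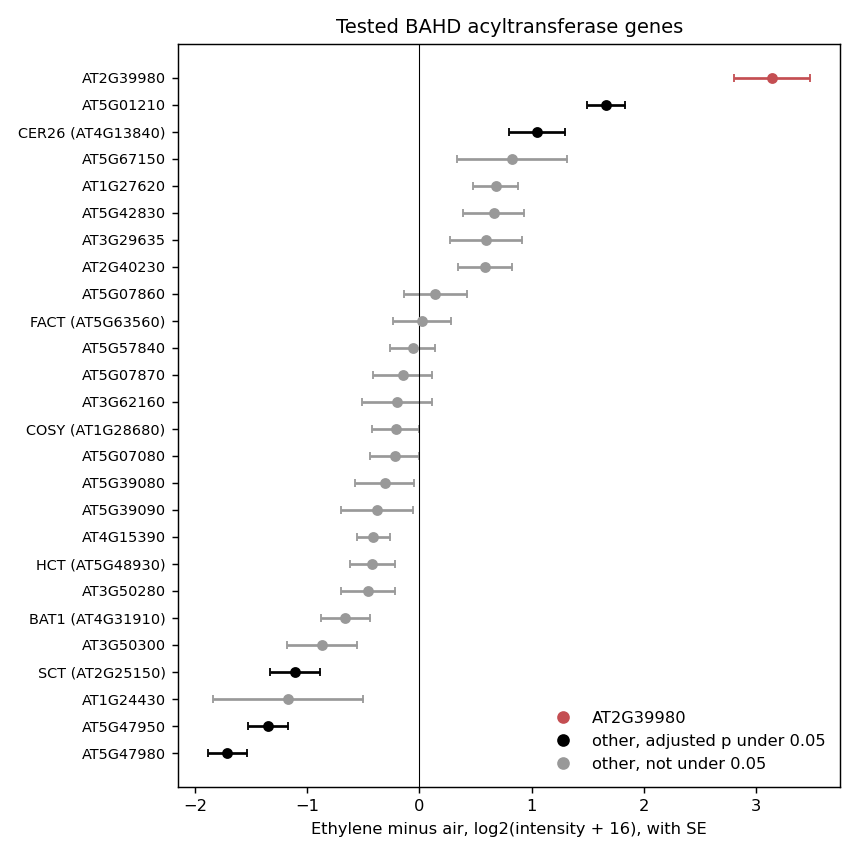
Difference between ethylene and air (log2(intensity + 16), points, with SE as bars) for the 26 tested BAHD genes, sorted by size from the top. AT2G39980 in red lies at 3.14, the next gene, AT5G01210, at 1.66, and AT5G47980 at the lower end at −1.71; black points are other genes with a limma adjusted p under 0.05.

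Between experiments, 5 of the 26 BAHD genes were called higher and 8 lower in experiment 2, against 18.2% and 12.4% of all probe sets tested, and AT2G39980 had the lowest difference of the 26. Scaling the arrays to equal medians gave 3 higher and 8 lower, where the background itself turned to 1820 higher and 2962 lower of 15922. Leaving out 1 array gave 4 lower without air 2-2 and 5 lower without air 1-2, ethylene 1-1 or ethylene 2-1, and 3 higher without air 2-1, air 2-2 or ethylene 2-1. These counts were added after the values were seen.

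The aminotransferase gene had few relatives with a named probe set. Of the 7 BCAT genes, AT1G50110, BCAT4 and BCAT5 had a single-gene probe set. BCAT5 (AT5G65780), a plastid enzyme, read 4435.0, 5183.8, 4051.4 and 4364.4 on ethylene 2-1, 2-2, 1-1 and 1-2, and 4550.1, 3719.2, 4636.0 and 5133.3 on the same air arrays. The groups overlapped, and its difference was 0.00 (SE 0.15, limma adjusted p = 0.997). BCAT4 (AT3G19710), which acts in the chain elongation of methionine for glucosinolates, was under the filter, with 150.9 to 370.9 in ethylene and 143.8 to 344.3 in air, and was not tested. BCAT7 (AT1G50090), the nearest protein-coding gene of the same family and separated from AT1G50110 by a tRNA gene in the RefSeq order of assembly TAIR10.1, is not analysed here. The probe sequences were not used here, so whether the AT1G50110 probe set also binds BCAT7 transcripts was not tested.

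No tested gene of the pathways on either side of the aminotransferase step was called in ethylene. The model had group as its only term and leaves the experiment in the spread. Of all probe sets tested 1.56% were called higher and 2.55% lower, so the lack of calls among so few genes is not read as a result about the pathways. Of the genes for the synthesis of branched-chain amino acids, 3 of 15 were tested and none passed with limma. KARI (AT3G58610), the ketol-acid reductoisomerase, had the smallest p of these and read 33412 ± 4149 in ethylene and 29771 ± 1039 in air (difference 0.16, SE 0.14, adjusted p = 0.745). Of the genes for their breakdown, 10 of 17 were tested, none passed and 9 had a positive difference. Their median was 0.26, against 0.01 for all probe sets tested. The share of all probe sets with a positive difference is not given here. HML1 (AT2G26800), the lyase that ends leucine breakdown, had the smallest p, with 4312 ± 655 in ethylene and 5565 ± 1023 in air (difference −0.36, SE 0.17, adjusted p = 0.4). With the experiment as a block HML1 fell (adjusted p = 0.0491, with a range of 0.0491 to 0.818 over all alternatives).

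IVD (AT3G45300), the isovaleryl-CoA dehydrogenase that follows the aminotransferase and the keto acid dehydrogenase in leucine breakdown, rose with the experiment as a block (adjusted p = 0.000581, with a range of 0.000497 to 0.813 over all alternatives). It is named after its values were seen. IVD read 7774.0, 6599.2, 26040.8 and 21039.0 on ethylene 2-1, 2-2, 1-1 and 1-2, and 4665.0, 4338.0, 13384.4 and 10092.0 on the same air arrays. In each experiment both ethylene arrays lay above both air arrays, while over all 8 arrays the groups overlapped, and the difference was 0.84 (SE 0.49). It was 1.01 in experiment 1 alone (limma adjusted p = 0.0042) and 0.67 in experiment 2 alone (limma adjusted p = 0.0404).

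Several breakdown genes were, like AT2G39980, lower in experiment 2. Of the 10 tested, 6 were called lower and 0 higher in experiment 2, where 12.4% of all probe sets tested were called lower. Their median shift was −0.50. The 6 were MCCA at −2.03 (SE 0.12, limma adjusted p = 2.66e-07), IVD at −1.54 (SE 0.13, 4.66e-06), ETFQO at −1.19 (SE 0.17, 0.000373), MCCB at −0.94 (SE 0.11, 9.06e-05), ALDH6B2 at −0.60 (SE 0.12, 0.00224) and HML1 at −0.40 (SE 0.11, 0.0158). MCCA and MCCB form the methylcrotonyl-CoA carboxylase of leucine breakdown, and ETFQO passes electrons from IVD to ubiquinone. MCCA read 4613.4 and 4226.0 on the ethylene arrays of experiment 2 and 17180.7 and 17722.4 on those of experiment 1. In air it read 3719.3 and 3047.2 in experiment 2 and 15821.5 and 12870.3 in experiment 1, so the experiments were separate in both groups. The count of lower genes was 5 or 6 under the 17 alternatives, 1 gene was called higher without ethylene 1-1 or ethylene 2-2, and this comparison was added after the values were seen. All probe sets were measured on the same 8 arrays, so the shifts of these genes are not independent of one another, and their source was not tested.

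**Figure D3:**
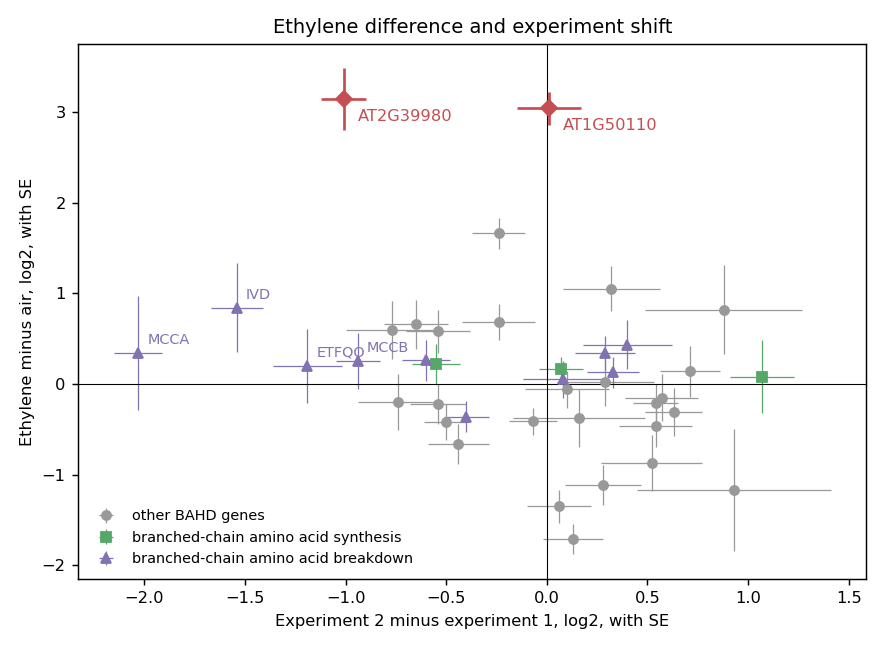
Log2 difference between experiment 2 and experiment 1 (horizontal axis) against the log2 difference between ethylene and air (vertical axis), both with SE, for AT2G39980 and AT1G50110 (red diamonds), the other tested BAHD genes (grey), and genes for the synthesis (green) and breakdown (purple) of branched-chain amino acids. AT2G39980 lies at −1.01 and 3.14 and AT1G50110 at 0.01 and 3.04; MCCA and IVD lie farthest to the left, at −2.03 and −1.54.

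In other pathways that use products of these enzyme families, few genes had a named probe set. In the list of aliphatic glucosinolate synthesis 1 of 13 genes was tested, UGT74C1 (AT2G31790), with a difference of 0.32 (SE 0.22, limma adjusted p = 0.631). In the list of phenylpropanoid and lignin synthesis 1 of 18 was tested, CCR2 (AT1G80820), a cinnamoyl-CoA reductase. CCR2 read 308 ± 77.9 in ethylene and 511 ± 87.5 in air, with no overlap, and its difference of −0.72 did not pass (SE 0.26, limma adjusted p = 0.212). None of the 14 genes listed for cutin and suberin synthesis had a single-gene probe set, and these are not analysed here.

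Markers of seedling tissues were checked beside the 2 genes. Of 6 root hair markers 3 were measured, and their summed intensity was 6039.0 to 8250.1 in ethylene and 3220.4 to 5525.9 in air. XTH26, at 882 ± 461 in ethylene and 105 ± 86.3 in air, and EXPA7, at 2136 ± 219 in ethylene and 1226 ± 312 in air, were the 2 that passed (limma adjusted p = 0.0169 and 0.0483), where 1.56% of all probe sets tested were called higher. EXPA18 read 3856 ± 453 in ethylene and 2868 ± 633 in air and did not pass (limma adjusted p = 0.266). With the experiment as a block, where 4.33% were called higher, all 3 passed (EXPA18 adjusted p = 0.0452, with a range of 0.0452 to 0.708 over all alternatives). Their part in the difference of AT2G39980 and AT1G50110 was not tested. The XTH26 call ended without ethylene 2-1 (0.0524) or ethylene 2-2 (0.0585), and the EXPA7 call without any array other than air 2-1 (0.0687 to 0.135), while the ranges over all alternatives were 4.17e-05 to 0.0681 and 0.00622 to 0.295. Of 9 markers of cotyledons and seed reserves, PORB and ICL were measured, with summed intensities of 102676.9 to 175606.1 in ethylene and 81119.1 to 123906.9 in air, and neither passed. PORB had the smaller p, with a difference of 0.60 (SE 0.21, limma adjusted p = 0.172), and passed with the experiment as a block (0.0247, with a range of 0.00726 to 0.601 over all alternatives). None of 6 general root markers had a single-gene probe set in the annotation used here, which leaves many probe sets unlisted.

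The genes whose profile over the 8 arrays was most like that of each gene were found by the root mean square difference of log2 values, each gene centred on its own mean, among 8675 other single-gene probe sets. The nearest to AT2G39980 was AT1G49570, a class III peroxidase gene, at 0.26 log2 units. It had 16046 ± 3407 in ethylene and 1844 ± 942 in air, and its difference between experiments was −0.85. That difference was −1.22 in air and −0.48 in ethylene. As the gene was picked on a profile that includes this shift, no test of it is given. The next were AT2G22880 (0.45), the auxin glucosyltransferase gene IAGLU (0.45), AT1G50110 itself (0.54) and AT5G18470 (0.57). The nearest to AT1G50110 were AT1G72290, which encodes a Kunitz-type protease inhibitor (0.35), GH9B12, a glycosyl hydrolase gene (0.36), IAGLU (0.37), AT5G18470 (0.42) and AT2G22880 (0.46). IAGLU, AT2G22880 and AT5G18470 occur on both lists, and AT2G39980 was number 8 for AT1G50110. AT1G72290 and GH9B12 differed between experiments by 0.03 and 0.34. The profiles include the step between groups, which the choice of the 2 genes used. They also include the shift between experiments, on which the nearest genes were picked. The likeness is therefore a description only.

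**Figure D4:**
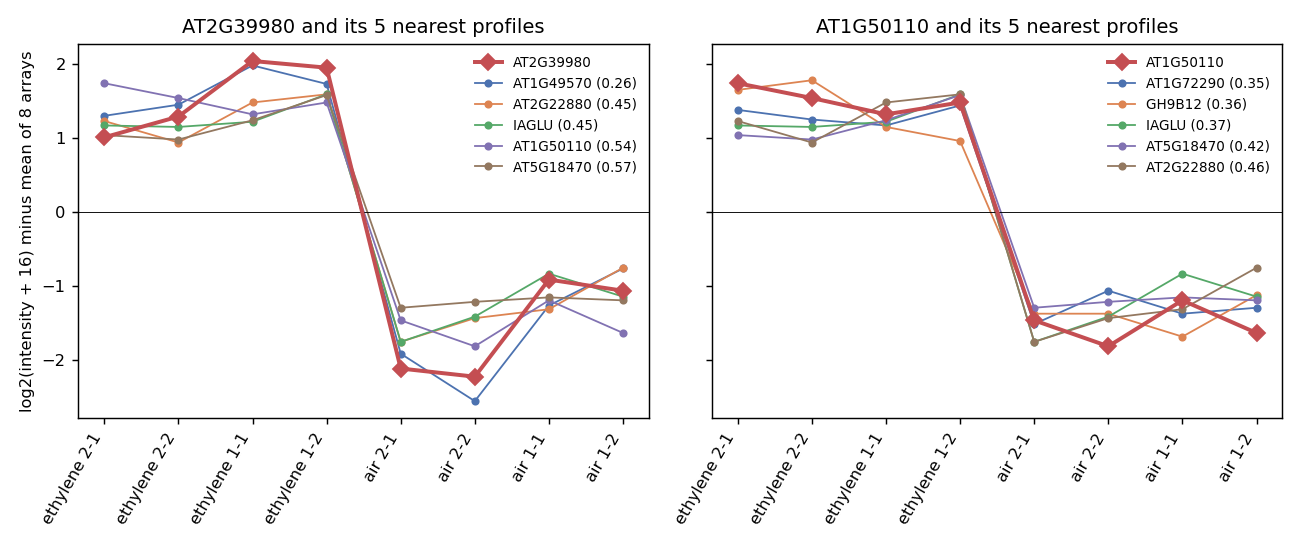
log2(intensity + 16) minus the gene's mean over 8 arrays (vertical axis) on each array, ethylene arrays left of air arrays, for AT2G39980 (left panel) and AT1G50110 (right panel) in thick red with the 5 most similar profiles, whose root mean square difference stands in brackets. AT1G49570, picked as the nearest over these same 8 arrays, lies at 0.26 from AT2G39980.

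No tested gene next to the 2 loci in the RefSeq order passed the ethylene test. Among all probe sets tested 1.56% were called higher and 2.55% lower, so the lack of calls among so few genes is a description only. Of the 6 nearest annotated genes of AT2G39980, 2 had a single-gene probe set, AT2G39960 with a difference of 0.07 (SE 0.29, limma adjusted p = 0.966) and AT2G39950 with 0.19 (SE 0.28, limma adjusted p = 0.866). AT2G39950 was lower in experiment 2, with a difference of −0.79 (limma adjusted p = 0.00145). The small gene AT2G39975 overlaps AT2G39980 in that annotation, and which of them a probe binds was not tested. Of the 6 nearest genes of AT1G50110, 3 had a single-gene probe set. AT1G50120 differed by 0.13 (SE 0.19, limma adjusted p = 0.868), AT1G50140 by 0.21 (SE 0.24, limma adjusted p = 0.819), and AT1G50080, with 101.4 to 136.4 in ethylene and 24.7 to 159.5 in air, was under the filter.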

How the data were processed

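The authors' deposited table holds 1 linear intensity per probe set and array. Its mean after removing 2% of values at each end was 2500.2 on every array, a scaling to a common target that the sources used here do not describe. Not given in the sources used here are the scanner software and the probe summary. Intensities were converted to log2(intensity + 16). The 64 control probe sets and the 30% with the lowest mean log2 value were removed, which left 15922 for limma 3.58.1 (R 4.3.3, eBayes with trend), with Benjamini-Hochberg adjustment over all of them and a threshold of 0.05. Ethylene was compared with air with group as the only term, and experiments and the interaction in a model with a mean for each experiment and group. Tables and plots were made with Python 3.11.15, pandas 2.3.3 and matplotlib 3.10.9. The fits were tested on simulated data with known changes. Gene names came from the platform annotation and were updated through RefSeq (TAIR10.1), which matched 13436 of 13513 single-gene probe sets. 503 probe sets name several genes and 8730 are not listed, and these stayed unnamed. For a gene with more than 1 probe set, the one with the highest mean was used. The number of arrays limits the precision.

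The 2 genes, the gene lists and the tests were chosen with earlier results of these data known. Named genes were the 2 genes, all measured BCAT genes, the BAHD genes that passed and the 3 largest differences that did not, up to 3 passing genes (or the smallest p) of each other list, the 5 nearest profiles and the 3 nearest genes on each side. The first number of an array marks an experiment shared by both groups, per the labels, so it pairs samples. Deviations from the group mean correlated with r = 0.327 to 0.593 between same-numbered arrays. Different replicas of the same experiment had r = 0.28 to 0.528, so the replica number is not shown to pair arrays. Between experiments r was −0.252 or lower, which follows in part because deviations cancel out within each group. The alternatives were other pseudocounts, filters and scalings, no trend, blocks by experiment or pair, replicas as a random block, each experiment alone and each array left out.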

Additional observations from a re-analysis of the deposited data

Results flagged for a closer look

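Within each group of 4 arrays, the gap between the highest or lowest array and its nearest neighbour was divided by the range of the group on the log2 scale. In 3 of 80 groups this share was above the 95% critical value of Dixon's test, which chance exceeds in about 1 in 20 groups. The share depends on the range of the group as well as on the size of the gap. CER26 (AT4G13840) read 267.5 on air 1-1, below the other air arrays. IAGLU read 27313.1 on ethylene 1-2, above the other ethylene arrays. AT5G09300, a subunit gene of the branched-chain keto acid dehydrogenase, read 734.2 on ethylene 1-2, below the other ethylene arrays. No group of AT2G39980 or AT1G50110 held such an array.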

How the results depend on the processing

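The ethylene differences of AT2G39980 and AT1G50110 were positive under all 20 alternatives, from 2.93 to 3.37 and from 2.81 to 3.27. For AT1G50110, experiment 2 alone gave 3.27 and experiment 1 alone 2.81. The experiment shift of AT2G39980 passed under all 17 alternatives, and neither interaction passed under any of 16. With the experiment as a replicate block, 689 probe sets were higher and 1170 lower, 6 BAHD genes were higher and 6 lower, and 1 breakdown gene was higher and 1 lower. With the 4 pairs as a replicate block the counts were 643 and 1133, 6 and 5, and 1 higher. With replicas as a random block 119 probe sets were called higher and 130 lower, and 2 BAHD genes were higher and 2 lower. Leaving out 1 array gave 164 to 204 higher (164 without ethylene 1-2) and 214 to 315 lower (with air 2-1, 2-2 or 1-2 left out 214, 238 and 243, and with ethylene 1-2 or 2-2 left out 246 and 266). Between experiments, leaving out 1 array gave 3 to 5 BAHD genes higher and 4 to 8 lower, and 0 to 1 breakdown genes higher, and median scaling and quantile normalization gave 3 BAHD genes higher each. The cause of these moves was not tested. For the 36 other named genes, 674 of 712 values kept their side of the threshold, 30 lost and 8 gained a call, and none reversed. SCT and CER26 also lost their calls with replicas as a random block (0.135 and 0.253). Genes under a stricter filter gave no value there. Without detection calls, signal over background is unknown.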
